A study of Mus musculus with 6 samples.

Results

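The genes described here form the MYC, MAX and MXD network, a family of transcription factors that bind DNA as pairs. The 10 members were chosen by name, as the MYC paralogs (Myc, Mycn and Mycl), their partner Max, the antagonists Mxd1, Mxd3, Mxd4, Mxi1 and Mnt, and the MAX-like factor Mlx, out of 22969 gene identifiers in the count table. All 10 were listed in the table, and 9 passed the filter on low counts, so that they were among the 12350 genes tested. Mycl did not.

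RNA was sequenced from hematopoietic stem cells of the bone marrow of adult C57BL/6 mice, sorted as lineage-negative, Sca-1+, Kit+, CD150+ and CD48-. The control group was 3 libraries from Rbfox2-fl/fl mice, in which Rbfox2 is flanked by recombination sites but no Cre is present. The other group was 3 libraries from Vav1-cre; Rbfox2-fl/fl mice, in which Cre driven by the Vav1 promoter acts in blood cells generally and not in stem cells alone. Both groups carry the floxed allele, and neither group is a Cre control without it. Each library came from about 500 cells, prepared with Smart-seq2, which copies whole transcripts and keeps neither strand nor molecular identifiers. Sums over sorted cells cannot tell fewer expressing cells from less RNA per cell.

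As background, MYC, MYCN and MYCL each pair with MAX, bind the E-box sequence CACGTG and raise the expression of genes for ribosome assembly, metabolism and growth. The MXD proteins, MXI1 and MNT also pair with MAX, bind the same sequence and recruit SIN3 corepressors. MLX pairs with some MXD proteins, with MNT and with the glucose-responsive factors MLXIP and MLXIPL. In hematopoietic stem cells MYC is known for the balance between self-renewal and differentiation, and MYC and MYCN together for the survival and proliferation of these cells.

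Depth ran from 23474895 to 35650284 counts in the libraries labelled Rbfox2-deleted and from 47895459 to 55151484 in the controls. Controls 1 and 3 were nearly identical, with a chi-square over its degrees of freedom of 3.44 across genes, where no other pair was under 156, and their counts were summed and treated as 1 sample. Rbfox2-deleted 1 stood apart, at 557 to 808 on that measure from each other library. Genes detected numbered 16675 to 17087 in controls and 14154 to 15972 in libraries labelled Rbfox2-deleted, and mitochondrial genes took 5.52% to 5.58% and 3.90% to 5.19% of counts. The control group then had n = 2 and the Rbfox2-deleted group n = 3. The targeted gene Rbfox2 had 238, 11 and 250 counts in controls 1 to 3 and 2, 87 and 10 in libraries labelled Rbfox2-deleted 1 to 3, so that control 2 and Rbfox2-deleted 2 went against their labels. These counts take in exons that a deletion can leave in place, and every direction below rests on the labels. Xist counts (2821 and 2467) marked Rbfox2-deleted 1 and 3 as female, and the other libraries had at most 55. Of the sort markers, Cd48 had 0 counts in all libraries but Rbfox2-deleted 3, which had 3. The summed CPM (read counts after scaling for the depth of the library) of 10 stem cell gate genes was between 1752 and 1846 in controls and between 1551 and 1610 in libraries labelled Rbfox2-deleted. Single gate genes did not move together. Ly6a had 627, 874 and 659 CPM in controls 1 to 3 and 391, 311 and 363 CPM in Rbfox2-deleted 1 to 3. In the same order Kit had 99.1, 79.4 and 98.6 against 86.7, 179 and 177 CPM. Slamf1 had 45.6, 10.7 and 44.6 against 51.1, 19.5 and 51.6 CPM.

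The 3 MYC paralogs come from separate genes with related proteins, and a read that fits more than 1 of them would blur their balance. For that reason their sequences were compared. No stretch of 50 bases in the longest transcript of Myc, Mycn or Mycl was found in an annotated transcript of any other gene. The longest identical run between the coding sequences was 12 bases for Myc and Mycn, 21 bases for Myc and Mycl and 23 bases for Mycn and Mycl. The latter pairs are shown with flanks from GENCODE M21 transcripts on mm10, 5′ to 3′ on the coding strand, with the shared run in capitals, and each lies in exon 2 of 3 of the transcript it was read from. The Myc stretch is at chr15:61987654-61987698 on the plus strand and the Mycl stretch that matches it at chr4:122996595-122996639 on the plus strand. The Mycn stretch is at chr12:12940017-12940063 on the minus strand and its Mycl match at chr4:122996787-122996833.
Myc: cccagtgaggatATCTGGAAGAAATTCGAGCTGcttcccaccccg
Mycl with the Myc run: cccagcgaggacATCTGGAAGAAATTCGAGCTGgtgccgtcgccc
Mycn: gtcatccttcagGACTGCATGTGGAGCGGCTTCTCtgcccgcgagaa
Mycl with the Mycn run: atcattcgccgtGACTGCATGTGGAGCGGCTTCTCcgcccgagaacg

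The network's own binding word, CACGTG, which reads the same on both strands, was looked for in windows from 250 bases before to 50 bases after RefSeq gene starts (GRCm38.p6, the assembly of mm10). Windows were held for 9 of the 10 members, all but Myc. These members had 11 windows, several of them of Mxi1. The word was found in 4 of the 11 windows (36.4%), those of Max, Mlx, Mnt and Mxd4. It was found in 1589 of 19629 windows (8.10%) of protein-coding genes in the count table. Of 47 windows of MYC-activated genes, 11 (23.4%) held it. A match describes the letters and is not a measured binding site. The 60 bases around each are shown on the strand of the gene with the E-box in capitals, because these are the members whose own start carries the word that the network binds. The word began 3 bases before the start of Max, 40 before that of Mlx, 123 before that of Mnt and 219 before that of Mxd4.
Max, chr12:76962219-76962278, minus strand: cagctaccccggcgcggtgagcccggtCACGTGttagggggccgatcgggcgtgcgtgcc
Mlx, chr11:101087223-101087282, plus strand: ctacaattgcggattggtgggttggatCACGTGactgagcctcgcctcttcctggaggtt
Mnt, chr11:74830774-74830833, plus strand: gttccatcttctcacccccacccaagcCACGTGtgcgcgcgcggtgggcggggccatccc
Mxd4, chr5:34187897-34187956, minus strand: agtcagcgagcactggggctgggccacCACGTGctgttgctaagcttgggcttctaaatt

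Myc and Mycn had the clearest separation of the groups among the members, both with higher levels in all 3 libraries labelled Rbfox2-deleted, but neither passed the test over all genes. Depth, genes detected and the mitochondrial share separated the same groups, and their part in the result was not tested. Only Rbfox2-deleted 1 and 3 were marked as female by Xist. With sex as a covariate the group difference rested on Rbfox2-deleted 2 against the controls. The log2 fold change was then 1.48 for both Myc and Mycn. Values are CPM scaled by TMM factors, which correct for differences in composition between libraries. Myc (ENSMUSG00000022346, mm10 chromosome 15, 61985391 to 61990374, plus strand), the founding member of the family, had 3633, 4362 and 4270 counts in controls 1 to 3. That is 75.2, 90.7 and 76.7 CPM. In Rbfox2-deleted 1 to 3 it had 2033, 8931 and 10562 counts, or 103, 232 and 272 CPM. Every library labelled Rbfox2-deleted lay above every control, with Rbfox2-deleted 1 close to the controls and the other 2 far above them. The means were 83.3 ± 10.4 CPM (SD, n = 2) and 202 ± 88.3 CPM (SD, n = 3), a ratio of 2.42. The fitted log2 fold change was 1.28 (SE 0.480, edgeR unadjusted p = 0.0356, adjusted p = 0.468).

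Mycn (ENSMUSG00000037169, chromosome 12, 12936093 to 12941914, minus strand), the paralog named for neuroblastoma and expressed in blood stem cells, had 1458, 1134 and 1633 counts in controls 1 to 3 and 1198, 2859 and 4732 in Rbfox2-deleted 1 to 3. These were 30.2, 23.6 and 29.3 CPM in the controls and 60.5, 74.2 and 122 CPM in the libraries labelled Rbfox2-deleted. The lowest of the latter was above the highest control, and unlike Myc the gene was well above the controls in Rbfox2-deleted 1 too. Its means were 26.6 ± 4.35 CPM (SD, n = 2) and 85.4 ± 32.1 CPM (SD, n = 3), a ratio of 3.21. Fitted, this was a log2 fold change of 1.68 (SE 0.537, edgeR unadjusted p = 0.0188, adjusted p = 0.410). Without Rbfox2-deleted 1 the values were 1.58 for Myc (adjusted p = 0.0635) and 1.86 for Mycn (adjusted p = 0.0649), the lowest adjusted p of any alternative, and the highest was 0.999997 for both genes. Mycl (ENSMUSG00000028654, chromosome 4, 122995652 to 123002485, plus strand), the third paralog, had 0, 1 and 1 counts in the controls and 5, 0 and 0 in Rbfox2-deleted 1 to 3. A count of 0 allows up to 0.0778 CPM (3 counts) at the depth of Rbfox2-deleted 2, and intervals and limits of this kind cover counting error only. Only Rbfox2-deleted 1, with 0.253 CPM (95% Poisson interval 0.0820 to 0.589), was above its own limit of 0.152 CPM.

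**Figure D1:**
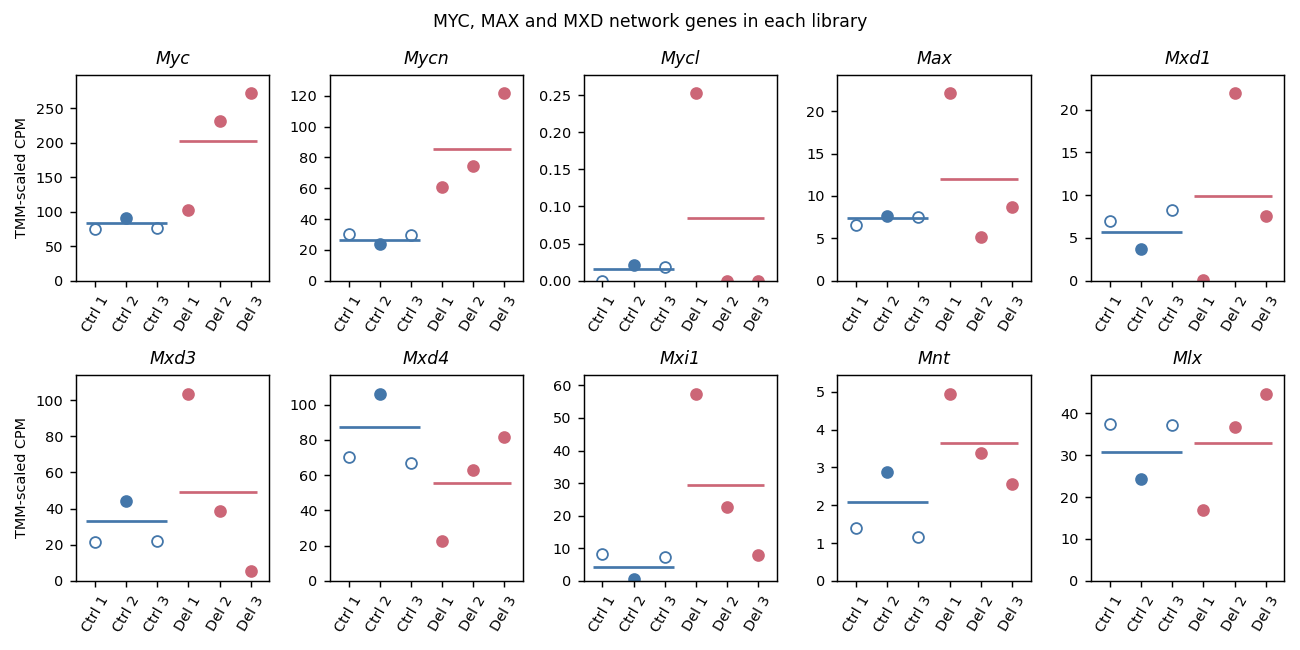
TMM-scaled CPM of the 10 members in each library (Ctrl, control; Del, labelled Rbfox2-deleted; each panel starts at 0 on its own scale). Open points are controls 1 and 3, which count as 1 sample, and lines are group means over 2 and 3 samples; Myc and Mycn are higher in all 3 Del libraries, from 103 and 60.5 CPM upwards, while Max, Mxd3 and Mxi1 are highest in Del 1.

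Paralog balance was compared per kilobase of each gene's longest annotated transcript, as levels of different genes can be set side by side only per length. Myc led in every control, at 32.2, 38.8 and 32.8 CPM per kb in controls 1 to 3, and Mycn had 11.3, 8.81 and 11.0 CPM per kb. In Rbfox2-deleted 1 to 3 the levels were 43.9, 99.1 and 116 CPM per kb for Myc and 22.6, 27.7 and 45.5 CPM per kb for Mycn. Mycn thus made up 26.0%, 18.5% and 25.1% of the summed paralog level in controls 1 to 3, and 34.0%, 21.9% and 28.1% in Rbfox2-deleted 1 to 3. The group means of this share were 22.0% ± 4.92 (SD, n = 2) and 28.0% ± 6.05 (SD, n = 3), and the groups overlapped. The difference of 5.99 percentage points was smaller than the SD of the Rbfox2-deleted group. The summed level of the 3 paralogs was 43.4, 47.6 and 43.8 CPM per kb in the controls and 66.6, 127 and 162 CPM per kb in Rbfox2-deleted 1 to 3, with no overlap. No test was made of these sums, since the members were chosen with earlier results known.

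Max (ENSMUSG00000059436, chromosome 12, 76937269 to 76962201, minus strand), the obligate partner of MYC and MXD proteins, ranked 6 of 10 per kilobase in every control, below Myc, Mycn, Mxd3, Mxd4 and Mlx, and did not differ beyond the spread between samples. It had 6.58, 7.63 and 7.49 CPM in controls 1 to 3 and 22.1, 5.19 and 8.66 CPM in Rbfox2-deleted 1 to 3. Rbfox2-deleted 1 was high, Rbfox2-deleted 2 was below all controls, and the groups overlapped. The log2 fold change of 0.71 (SE 1.12, edgeR adjusted p = 0.942) rested on Rbfox2-deleted 1, without which it was -0.10. Per kilobase, Max stood at 7.80% to 8.81% of the summed MYC paralog level in the 3 controls. In Rbfox2-deleted 1 to 3 it stood at 17.1%, 2.11% and 2.76%. RNA level does not give the amount of MAX protein.

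The antagonists did not move together. Mxd4 (ENSMUSG00000037235, chromosome 5, 34173883 to 34187720, minus strand), an MXD protein linked to quiescent and differentiating cells, had 70.0, 106 and 66.9 CPM in controls 1 to 3. In Rbfox2-deleted 1 to 3 it had 22.4, 62.9 and 81.6 CPM, with 1 library far below and 2 within or near the control range. Mxd4 was the only member tested with a negative log2 fold change, -0.65 (SE 0.628; edgeR adjusted p = 0.875). It was -0.28 without control 2, -0.29 without Rbfox2-deleted 1 and -1.04 without Rbfox2-deleted 3. The longest annotated Mxd4 transcript is a retained intron form of 1 exon, and its level per kilobase is a lower value than its coding transcript of 3872 bases would give. The longest Mxd3 transcript (1742 bases, 4 exons) is likewise longer than its coding one (1327 bases), so its level per kilobase is also lower than the coding length would give.

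Mxd3 (ENSMUSG00000021485, chromosome 13, 55325168 to 55329823, minus strand), an MXD protein known from proliferating cells, spanned the widest range of CPM among the antagonists. It had 21.3, 44.1 and 22.0 CPM in controls 1 to 3 and 104, 38.5 and 5.30 CPM in Rbfox2-deleted 1 to 3. The libraries labelled Rbfox2-deleted lay on both sides of the controls. Its log2 fold change of 0.58 (SE 1.14, edgeR adjusted p = 0.960) turned to -0.60 without Rbfox2-deleted 1. Its exons share 105 bases (4.43%) with Prelid1 on the opposite strand, which had between 149 and 380 CPM in the 6 libraries, and reads there cannot be assigned to a strand.

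Mxi1 (ENSMUSG00000025025, chromosome 19, 53310518 to 53375810, plus strand), also named MXD2, had the largest fitted fold change of the members and a wide error. It had 392, 34 and 404 counts in controls 1 to 3, or 8.11, 0.707 and 7.26 CPM. In Rbfox2-deleted 1 to 3 it had 1138, 876 and 308 counts, or 57.5, 22.7 and 7.92 CPM. Controls 1 and 3 and Rbfox2-deleted 3 were at about the same level, control 2 was low, and Rbfox2-deleted 1 was high. The summed controls 1 and 3 had 7.66 CPM, so that the 5 samples did not overlap, whereas control 1 alone was above Rbfox2-deleted 3. The log2 fold change was 2.81 (SE 1.47, edgeR unadjusted p = 0.102, adjusted p = 0.636), and it was 1.94 without control 2, 5.33 without controls 1 and 3, and 1.87 without Rbfox2-deleted 1. Of the 50-base stretches in its longest transcript, 2.95% occur in transcripts of Gm10197 or Gm13735, so some of its reads may be lost or shared.

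Mxd1 (ENSMUSG00000001156, chromosome 6, 86647042 to 86669161, minus strand), the MXD protein first described as a MAX partner in differentiating cells, ranged from nearly absent to high within the libraries labelled Rbfox2-deleted. It had 7.04, 3.72 and 8.25 CPM in controls 1 to 3. Rbfox2-deleted 1 had a single count (0.0505 CPM, 95% Poisson interval 0.00128 to 0.281), while Rbfox2-deleted 2 had 21.9 CPM and Rbfox2-deleted 3 had 7.56 CPM. Its log2 fold change of 0.79 (SE 1.93, edgeR adjusted p = 0.961) turned to -0.60 without Rbfox2-deleted 2. Mnt (ENSMUSG00000000282, chromosome 11, 74830920 to 74845725, plus strand), the broadly expressed MAX-bound repressor, was low in each library. It had 1.41, 2.89 and 1.17 CPM in controls 1 to 3 and 4.95, 3.37 and 2.57 CPM in Rbfox2-deleted 1 to 3, where control 2 lay above Rbfox2-deleted 3. For Mnt the log2 fold change came to 0.80 (SE 1.39; edgeR adjusted p = 0.949), and it was 0.30 without controls 1 and 3, 0.495 without Rbfox2-deleted 1 and 1.51 without control 2.

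Mlx (ENSMUSG00000017801, chromosome 11, 101087277 to 101092207, plus strand), the MAX-like partner, had 37.5, 24.2 and 37.1 CPM in controls 1 to 3 and 16.9, 36.8 and 44.7 CPM in Rbfox2-deleted 1 to 3. The groups overlapped, with Rbfox2-deleted 1 lowest and Rbfox2-deleted 3 highest. A log2 fold change of 0.09 (SE 0.714; edgeR adjusted p = 0.990) was fitted. Of its exon bases, 385 (19.3%) overlap Psmc3ip on the opposite strand, and its counts are uncertain for that reason. Psmc3ip had 0 counts in Rbfox2-deleted 1 and between 982 and 4006 in the other libraries.

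**Figure D2:**
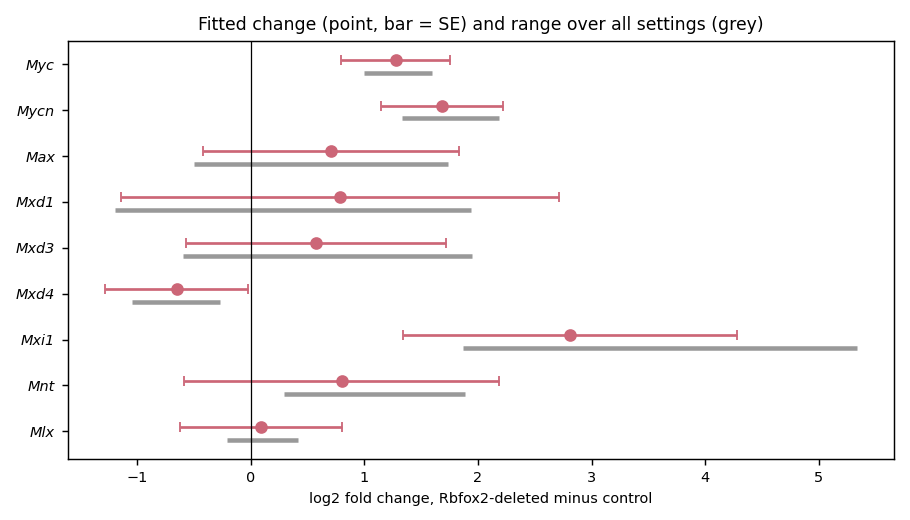
Log2 fold change of the 9 members tested, labelled Rbfox2-deleted minus control, with its SE (red) and the lowest and highest value over the main fit and its alternatives (grey). Myc (1.28), Mycn (1.68), Mxi1 (2.81) and Mnt (0.80) stay above 0 and Mxd4 (-0.65) stays below 0 under each setting tried, while Max, Mxd1, Mxd3 and Mlx cross 0.

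Of the 9 members tested, edgeR called 0 at an adjusted p under 0.05, against 0% of all 12350 genes, and DESeq2 and limma-voom also called 0. At an unadjusted p under 0.05 edgeR counted 2 members higher, Myc and Mycn, where 5.33% of all genes were so, and 0 lower, where 4.56% were. On that unadjusted scale limma-voom counted the same 2 higher (6.12% of all genes) and DESeq2 these and Mxi1 (8.61% of all genes). DESeq2 on the same genes called 181 (1.47%), none of them a member. The groups did not overlap for 3 members, each higher in libraries labelled Rbfox2-deleted (Myc, Mycn and Mxi1), and this held for 14.9% of all genes in that direction and 17.2% in the other. The median log2 fold change of all genes was 0.11. Relative to that median, Myc was 1.17 and Mycn 1.57, and over the main fit and its alternatives these ranged from 0.57 to 1.62 and from 1.21 to 1.96. The lowest of both came from a correction for transcript length, under which the median of all genes was 0.65. It was 0.63 with a GC correction and -0.20 with upper quartile factors.

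The order of the members per kilobase was the same at the ends in all controls, with Myc highest and Mycl lowest, and Mycn held the fifth place in each. The places between them were held by Mlx, Mxd3 and Mxd4, whose order differed between control 2 and the other controls. In Rbfox2-deleted 2 and 3 Mycn was second after Myc by the longest transcripts. In Rbfox2-deleted 2 Mycn stood at 27.7 CPM per kb and Mxd3 at 22.1. By its coding length of 1327 bases Mxd3 would lie above Mycn in that library. In Rbfox2-deleted 1 Mxd3 came first at 59.5 CPM per kb, above Myc at 43.9. Levels of Mlx (15.6 ± 4.71 CPM per kb), Mxd3 (18.9 ± 9.11) and Mxd4 (18.9 ± 5.80) in control (SD, n = 2) did not differ beyond their spread.

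The balance of antagonists to MYC paralogs differed more between libraries labelled Rbfox2-deleted than between the groups. The summed level of Mxd1, Mxd3, Mxd4, Mxi1 and Mnt was 30.8, 49.9 and 30.6 CPM per kb in controls 1 to 3 and 76.8, 45.6 and 24.4 CPM per kb in Rbfox2-deleted 1 to 3. As a ratio to the paralog sum this was 0.709, 1.05 and 0.698 in the controls. Rbfox2-deleted 1 to 3 had ratios of 1.15, 0.360 and 0.151. Thus 2 of these libraries lay below all controls and 1 above them. On the log2 scale the group means were -0.22 ± 0.41 (SD, n = 2) and -1.33 ± 1.47 (SD, n = 3). Mxd3 alone gave 77.4% of the antagonist level in Rbfox2-deleted 1, while Mxd4 gave 72.2% in Rbfox2-deleted 3.

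**Figure D3:**
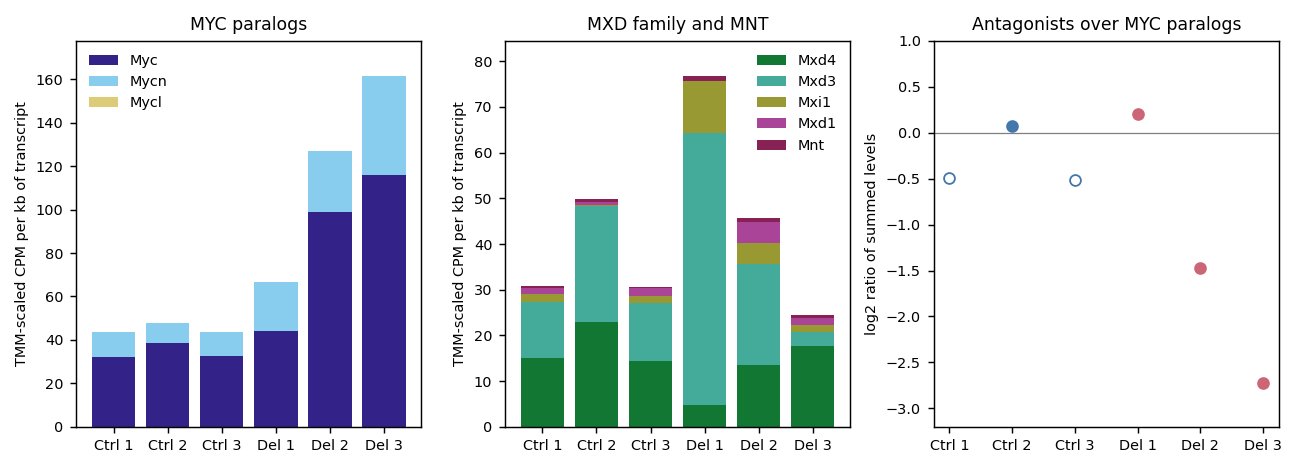
Stacked TMM-scaled CPM per kb of the MYC paralogs (left) and of the MXD family with Mnt (middle), and the log2 ratio of the antagonist to the paralog sum (right; open points are controls 1 and 3), in each library. Paralog sums are at most 47.6 in controls and 66.6, 127 and 162 in Del 1 to 3, and the ratio of Del 1 lies above the controls while those of Del 2 and 3 lie below.

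Cycling genes are given beside the network because MYC and MXD3 are known from dividing cells. The summed CPM of 8 such genes was 292, 365 and 289 in controls 1 to 3 and 142, 392 and 135 in Rbfox2-deleted 1 to 3. Mki67, a marker of dividing cells, had 350, 462 and 430 counts in controls 1 to 3 and 1, 42 and 2 in Rbfox2-deleted 1 to 3. Genes of myeloid progenitors summed to between 542 and 813 CPM in controls and between 386 and 455 CPM in libraries labelled Rbfox2-deleted. The monocyte and macrophage list summed to between 1604 and 2102 and between 1183 and 1478 CPM, and the megakaryocyte list to between 264 and 290 and between 52.1 and 209 CPM. Genes of the B cell list summed to between 229 and 328 and between 129 and 211.6 CPM, with at least 1 library at 0 for Cd79a, Ebf1, Vpreb1 and Ms4a1 among others. Erythroid genes summed to between 96.9 and 162 CPM in controls and reached 558 CPM in Rbfox2-deleted 1, against 61.7 and 147 CPM in Rbfox2-deleted 2 and 3. Neutrophil genes summed to between 19.4 and 27.4 and between 15.1 and 87.1 CPM, T and NK cell genes to between 81.9 and 103 and between 80.1 and 92.3 CPM, and mast cell genes to at most 8.98 CPM in any library. The part of these differences in the network's values was not tested. The filter on low counts was passed by 4 of 6 myeloid progenitor genes, 5 of 6 megakaryocyte genes and 2 of 6 monocyte genes. It was also passed by 2 of 6 B cell genes and 1 of 6 T and NK cell genes. Of the myeloid progenitor list, Mpo, Elane, Ctsg, Cebpe and Gfi1 had 0 counts in at least 1 library. Such sums can rest on few genes.

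MYC cofactors, the chromatin and elongation proteins that MYC recruits, lay above control as a list, though none passed the test over all genes. Of 16 tested, 16 had a log2 fold change above 0, where 53.5% of all genes did. The median of the 16 was 0.75. The groups did not overlap for 7 of the 16, each higher, and for 14.9% of all genes in that direction. The list was chosen with earlier results of these data known, so it is not independent evidence of a direction. At an unadjusted edgeR p under 0.05, 1 lay higher (5.33% of all genes) and 0 lay lower (4.56%). In the alternatives between 13 (upper quartile factors) and 16 lay above 0. Above the median of all genes lay 15 in the main analysis, and between 13 (transcript length correction) and 16 in the alternatives. Smarcb1, a core subunit of the SWI/SNF remodeller, had 155, 140 and 154 CPM in controls 1 to 3 and 328, 239 and 206 CPM in Rbfox2-deleted 1 to 3. All 3 of the latter were above the controls. For Smarcb1 a log2 fold change of 0.80 (SE 0.314; edgeR adjusted p = 0.485) was fitted. Values were 1.07 (SE 0.485) for Cdk9, the elongation kinase, and 1.18 (SE 0.558) for Actl6a, an actin-related subunit of remodellers. For Actl6a, Rbfox2-deleted 1 (48.1 CPM) was close to control 2 (47.8 CPM), while Rbfox2-deleted 2 and 3 had 131 and 123 CPM. The list median was above that of all genes in each of the 3 libraries, at 1.14, 0.63 and 0.55 as a log2 ratio to control in Rbfox2-deleted 1 to 3, where 13, 14 and 11 of the 16 genes lay above the control mean.

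MYC-activated genes were split. Of 44 tested, 29 were above control and 15 below, where 53.5% of all genes were above. The median of the list was 0.47 against 0.11 for all genes. The gap of 0.36 between these medians was 0.19 without controls 1 and 3 and 0.22 without control 2. Above the median of all genes lay 27 in the main analysis, and between 24 (without controls 1 and 3) and 32 in the alternatives. By edgeR 0 passed, while 7 lay higher with an unadjusted p under 0.05 (5.33% of all genes) and 0 lay lower (4.56%). DESeq2 called 3, Pes1, Rrs1 and Prmt5, each higher, and 1.47% of all genes in either direction. This list was written with earlier results known, and some of its genes had been named among those higher in these samples, so it is not independent evidence of a direction. Pes1, a ribosome assembly factor, had 18.4, 20.7 and 18.8 CPM in controls 1 to 3 and 94.7, 129 and 63.5 CPM in Rbfox2-deleted 1 to 3. Rrs1, which acts in assembly of the large ribosomal subunit, had between 13.0 and 16.1 CPM in the controls and 105, 54.5 and 58.1 CPM in Rbfox2-deleted 1 to 3. In both genes every library labelled Rbfox2-deleted was far above the highest control. The log2 fold changes were 2.29 (SE 0.530, DESeq2 adjusted p = 0.0157) for Pes1 and 2.32 (SE 0.601, DESeq2 adjusted p = 0.0280) for Rrs1, each with an edgeR adjusted p = 0.387. Fkbp4, an HSP90 co-chaperone, was at 1.24 (SE 0.297) and Prmt5, an arginine methyltransferase, at 1.62 (SE 0.445). In Rbfox2-deleted 1 to 3, 27, 26 and 25 of the 44 were above the control mean. The list medians there were 0.19, 0.23 and 0.18 as a log2 ratio to control. For all genes they were -0.41, -0.08 and -0.02.

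Among 12 tested genes that MYC represses, 5 were above control and 7 below (median -0.32), where 53.5% of all genes were above. By edgeR 0 were called. At an unadjusted edgeR p under 0.05, 0 lay lower (4.56% of all genes) and 1 higher (5.33%). That gene was Ndrg2, of the NDRG family, with 23.1, 12.2 and 25.2 CPM in controls 1 to 3 and 225, 88.6 and 67.3 CPM in Rbfox2-deleted 1 to 3 (log2 fold change 2.80, SE 0.729, DESeq2 adjusted p = 0.0376). DESeq2 called it higher, the opposite of its place in the list, while edgeR (adjusted p = 0.387) and DESeq2 with no filter on low counts did not. Below control were Gadd45a, a stress-induced growth arrest gene, at -1.70 (SE 1.09), and the cell cycle inhibitor gene Cdkn1a at -2.00 (SE 1.94). Klf4, a stem cell factor, was fitted at -3.14 (SE 1.92), but its groups overlapped. It had 2.71, 0.0416 and 2.68 CPM in controls 1 to 3 and 0.152, 0.0519 and 0.257 CPM in Rbfox2-deleted 1 to 3. Gadd45a, Cdkn1a and Klf4 each had a wide error and none passed. Leaving out control 2 gave a list median of 0.13 (0.16 for all genes), and leaving out controls 1 and 3 gave 0.22 (0.28 for all genes).

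The corepressors that MXD and MNT recruit were evenly divided, with 6 of 12 above and 6 below control and a median of -0.02. Of all genes, 53.5% were above. An unadjusted edgeR p under 0.05 was reached by 2 higher genes (5.33% of all genes) and 1 lower gene (4.56%). Rbbp7, a histone-binding subunit of the SIN3 complex, had 169, 131 and 173 CPM in controls 1 to 3 and 361, 536 and 492 CPM in Rbfox2-deleted 1 to 3. Sin3b, a scaffold that binds the MXD repression domain, had 445, 425 and 437 CPM in the controls and 255, 232 and 228 CPM in Rbfox2-deleted 1 to 3. Both genes separated the groups with a narrow spread, in opposite directions. Rbbp7 had a log2 fold change of 1.62 (SE 0.303, edgeR adjusted p = 0.387, DESeq2 adjusted p = 0.0336), and Sin3b one of -0.86 (SE 0.228, edgeR adjusted p = 0.387, DESeq2 adjusted p = 0.411). The histone deacetylase Hdac2 was at 1.32 (SE 0.502) and the corepressor Ncor1 at 0.995 (SE 0.471).

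Genes that act on MYC protein stability had 7 of 12 above and 5 below control (median 0.50), where 53.5% of all genes were above. An unadjusted edgeR p under 0.05 was reached by 1 higher gene (5.33% of all genes) and 1 lower gene (4.56%). Neither edgeR nor DESeq2 called any of them. Gsk3b, the kinase that marks MYC for degradation, had 76.6, 80.4 and 81.1 CPM in controls 1 to 3 and 413, 166 and 166 CPM in Rbfox2-deleted 1 to 3 (log2 fold change 1.64, SE 0.508, edgeR adjusted p = 0.395). Fbxo28 was at 2.13 (SE 1.02). Cip2a had at most 0.180 CPM in any control and 7.73, 0.0259 and 0.617 CPM in Rbfox2-deleted 1 to 3, so that the groups overlapped, and no fold is given for it. The groups did not overlap for Gsk3b, but it did not pass.

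Other E-box factors outside the members gave small fitted log2 fold changes. Mlxip, the MLX partner also named MONDOA, had 441, 367 and 433 CPM in controls 1 to 3 and 283, 317 and 367 CPM in Rbfox2-deleted 1 to 3 (log2 fold change -0.32, SE 0.247, edgeR adjusted p = 0.804). Usf1 was at 0.55 (SE 0.354), Mga at 0.55 (SE 1.17) and Usf2 at 0.42 (SE 0.910). Mga had between 13.4 and 15.9 CPM in the controls and 50.3 CPM in Rbfox2-deleted 1. In Rbfox2-deleted 2 and 3 Mga was below every control, so its groups overlapped and its positive value does not describe a shared rise. The MLX and MLXIP targets Txnip (-0.12, SE 0.384) and Arrdc4 (0.14, SE 0.477) showed no difference beyond their errors.

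**Figure D4:**
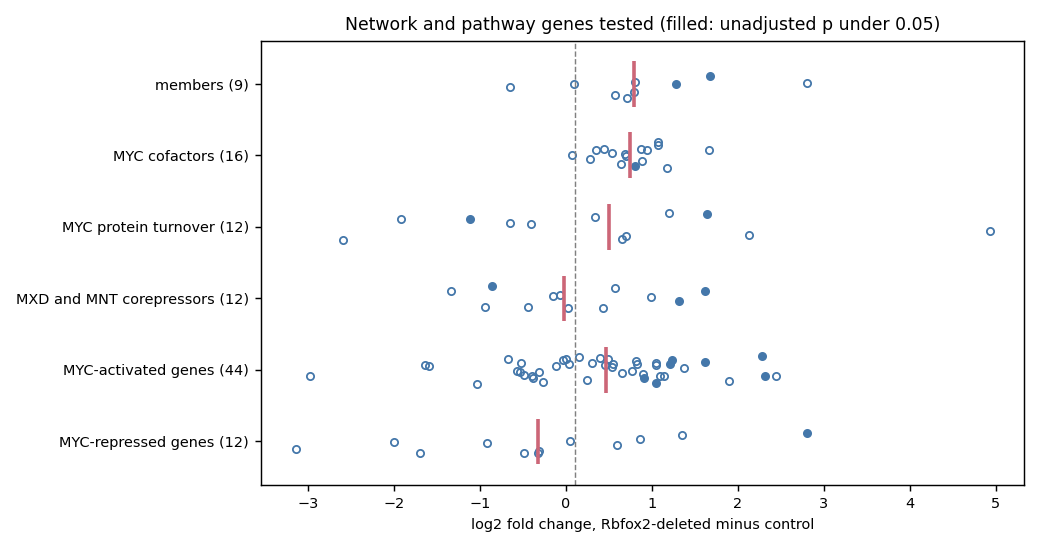
Log2 fold change (labelled Rbfox2-deleted minus control) of each tested gene in the network and in 5 lists chosen for this pathway, with the number tested in brackets; filled points have an unadjusted p under 0.05, red bars are list medians and the dashed line is the median of all genes (0.11). Medians run from 0.79 for the members and 0.75 for cofactors to -0.32 for MYC-repressed genes, and no point passed the edgeR adjusted threshold.

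The genes with the most similar pattern over the 5 samples were found by Euclidean distance between centred log2 CPM among 8364 protein-coding genes, as a description only. For Myc these were Prkaca, Tfr2 and Etfdh, at distances of 0.172, 0.200 and 0.208. For Mycn they were Arf2, Pcyox1l and Gp5, at 0.266, 0.279 and 0.308. Those nearest to Max were Dbp, Mctp1 and Ugp2, at 0.205, 0.213 and 0.248, each of them highest in Rbfox2-deleted 1. Myc and Mycn were 0.892 apart, and Mycn ranked 346 among the genes nearest to Myc.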

How the data were processed

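The authors deposited raw counts of reads per Ensembl gene for 6 libraries. Trimmomatic 0.39, featureCounts, DESeq2 1.36.0 and build mm10 are named in the submitters' processing notes. The aligner, annotation, strand setting and handling of multi-mapping reads were not given in the sources used here, so counts of genes that overlap or share sequence are uncertain. Rows sharing an identifier were summed (60 identifiers), and symbols were found for 22831 of 22969. Lengths, GC content and coordinates came from GENCODE M21, promoter windows from RefSeq.

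Controls 1 and 3 were summed. The main test was edgeR's quasi-likelihood test (version 4.0.16, R 4.3.3) on these counts (filterByExpr, minimum count 10 and total 15, TMM, glmQLFit, glmQLFTest, two-sided), with Benjamini-Hochberg adjustment over 12350 genes and a threshold of 0.05. Each SE was derived from the log2 fold change and its F statistic. CPM of controls 1 and 3 used the TMM factor of their sum. Log2 fold changes are Rbfox2-deleted minus control. Log2 ratios per library used a pseudocount of 1 CPM, and the distances 0.5 CPM with a mean of at least 5 CPM. Alternatives were DESeq2 1.42.0, limma-voom (limma 3.58.1), other scaling factors and filters, separate libraries, covariates, GC and length corrections, and each sample left out. Members, lists and tests were chosen with earlier results of these data known. All members were named, with the 4 genes of smallest p per list and the 3 nearest genes to Myc, Mycn and Max. Some genes that this rule names are not reported here. One listed MYC-activated gene was not analysed here. The test was also run on counts simulated with the spread between samples estimated from these data. It recovered 0% of 2-fold, 4% of 4-fold, 26% of 8-fold and 36% of 16-fold changes (50 genes each). A gene that was not called may therefore still differ. P values measure the spread between 5 samples.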

Additional observations from a re-analysis of the deposited data

How the results depend on the processing

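Over all genes edgeR called 0 under each of its settings, while DESeq2 called 181 genes, or 478 with no filter on low counts (chosen after seeing the data), and 3 MYC-activated genes passed in both DESeq2 fits. No setting called a member. Leaving out each sample in turn kept the calls over all genes, of members and of MYC-activated genes at 0. Myc lay between 0.99 and 1.58 and Mycn between 1.33 and 1.86 when each sample was left out. The difference in Mycn share lay between 2.51 and 9.48 percentage points and the log2 antagonist ratio between -1.88 and -0.41, and no other length definition moved either by more than the SD between samples. Directions turned for 4 members, none of them called. Max was -0.50 with sex as a covariate and between -0.10 and 1.05 when each sample was left out. With that covariate the group difference rested on Rbfox2-deleted 2 against the controls, as the only library of its group not marked as female. Mxd1 was -1.19 with limma-voom, -0.59 with 6 separate libraries and a replicate block, -0.64 with that block and a GC correction, and between -0.60 and 1.38 on leaving out samples (1.363 without Rbfox2-deleted 1). Mxd3 was -0.42 with limma-voom, -0.013 with the replicate block and between -0.60 and 1.17 on leaving out samples. Mlx was -0.18 with upper quartile factors, -0.048 with no filter, -0.067 with the replicate block and between -0.20 and 0.41 on leaving out samples (0.39 without Rbfox2-deleted 1). The cause of these turns was not tested. Deviations of same-numbered libraries from their group means had correlations of -0.048, 0.0024 and 0.074. Controls 1 and 3 are nearly identical, so this check cannot show whether the numbers pair the samples. With the block the calls over all genes and of members stayed at 0, with Myc at 1.23 and Mycn at 1.59. That fit took the nearly identical controls 1 and 3 as separate samples. Fits without controls 1 and 3 or without control 2 leave 1 control sample, which is assumed to vary like the others. Depth limits Mycl (at most 5 counts) and Mxd1 in Rbfox2-deleted 1 (1 count).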
